A study of Homo sapiens with 4 samples.

Results

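FOXK2 binding was examined at the promoters of 6 genes, FBXO32, NDUFAF6, HIBADH, TFAP4, HBP1 and DHX40, in OVCAR5 cells. OVCAR5 is an established ovarian cancer cell line, and its label gives ascites as the source and high grade serous as the tumor type. The labels give no treatment or genetic change. Cells were at passage 4 to 6, and crosslinked chromatin was immunoprecipitated with an anti-FOXK2 antibody in 2 biological replicates per the paper's methods, so a single condition was measured. The 2 input libraries of the series were not used here. The 6 genes were chosen by the score rank of a promoter peak that both replicates shared, so rank, sharing between replicates and promoter position are given as descriptions with no test. Peaks assigned to the 6 genes by the deposited nearest-TSS annotation numbered 10 of 12471 in replicate 1 and 16 of 27281 in replicate 2. In all, 7615 genes had a peak in both lists, and 2103 promoter peaks of replicate 1 overlapped a promoter peak of replicate 2.

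FOXK2 is a forkhead transcription factor. It binds DNA through a winged-helix domain, prefers the heptamer TGTTTAC and shares this preference with the FOXO factors, which are switched off by insulin and AKT signaling. FBXO32 encodes atrogin-1, the substrate-binding F-box subunit of a ubiquitin ligase that is known from muscle atrophy and as a FOXO target. NDUFAF6 is an assembly factor of respiratory complex I, and HIBADH is a mitochondrial dehydrogenase of valine breakdown. TFAP4 (AP-4) is a basic helix-loop-helix leucine zipper factor that binds the E-box CAGCTG. HBP1 is an HMG-box transcription factor that restrains the cell cycle and Wnt signaling. DHX40 belongs to the DEAH-box family of RNA helicases.

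Of the 6 promoter peaks, 5 held exactly 1 copy of TGTTTAC near their centre. The copies at HIBADH, TFAP4, HBP1 and DHX40 are shown with 10 bases to each side, together with the copy in a second TFAP4 peak in intron 1, because they allow the flanks of the site to be compared directly. All are from hg38 and are written 5′ to 3′ on the strand that reads TGTTTAC, which is in capitals.
HIBADH, chr7:27663137-27663163, plus strand: ggagtctcctTGTTTACcaaagcagag
TFAP4 promoter, chr16:4273087-4273113, minus strand: aatagtccttTGTTTACatgcaattcc
HBP1, chr7:107168609-107168635, plus strand: ctatgactctTGTTTACtatcaagact
DHX40, chr17:59565567-59565593, minus strand: gacgtagaggTGTTTACttccgcgcgt
TFAP4 intron 1, chr16:4271982-4272008, minus strand: gcccgggcgcTGTTTACtagcgaggcc
Counting the NDUFAF6 copy, 3 of the 5 promoter sites read TTGTTTAC, against 33.1% of the 381 exact sites in shared promoter peaks, and 0 of 5 read TGTTTACG, against 13.9%. TGTTTACA was read at 2 of 5, against 36.2%, TGTTTACT at 2 of 5, against 23.4%, and TGTTTACC at 1 of 5, against 26.5%. With 5 sites, no flank preference could be read from these shares.

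The replicate 1 peaks of HBP1 and HIBADH overlapped no GENCODE gene and are shown whole, 211 bases each on the strand of the gene. For TFAP4, the 150 bases of the replicate 1 peak that no GENCODE exon covers are shown. Capitals mark TGTTTAC and the other heptamers of the degenerate forkhead core on either strand. That core has 8 members, TGTTTAC, then TGTTTAT, then TGTTTGC, then TGTTTGT, then TATTTAC, then TATTTAT, then TATTTGC, then TATTTGT, and a match is a description of the letters and not evidence of a site in use.
HBP1, chr7:107168522-107168732, plus strand: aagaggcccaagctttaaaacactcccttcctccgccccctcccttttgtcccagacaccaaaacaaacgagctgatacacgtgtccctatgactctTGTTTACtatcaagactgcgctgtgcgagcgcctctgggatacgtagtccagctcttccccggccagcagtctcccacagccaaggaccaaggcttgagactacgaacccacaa
HIBADH, chr7:27663038-27663248, minus strand: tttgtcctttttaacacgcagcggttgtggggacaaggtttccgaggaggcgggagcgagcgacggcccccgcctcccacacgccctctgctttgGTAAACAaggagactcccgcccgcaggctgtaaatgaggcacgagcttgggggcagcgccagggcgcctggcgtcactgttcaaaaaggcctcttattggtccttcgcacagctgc
TFAP4, chr16:4273076-4273225, minus strand: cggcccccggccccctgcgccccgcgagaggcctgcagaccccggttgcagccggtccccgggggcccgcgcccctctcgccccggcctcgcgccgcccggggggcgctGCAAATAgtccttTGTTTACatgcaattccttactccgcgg
In the TFAP4 stretch GCAAATA, the reverse complement of TATTTGC, stood next to TGTTTAC without overlapping it.

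The FBXO32 promoter held the peak with the highest score of either list, and NDUFAF6 followed at rank 2 in both. HOMER, the peak caller, gives each peak a score that is its tag count scaled to the library, so scores were ranked only within their own list. Low scores were all whole multiples of 1 step, within 0.1 tag, and under HOMER's default scaling the step gives the number of tags behind each peak. The same step implies about 53000000 tags in the replicate 1 library and 67200000 in that of replicate 2. Intervals on tags are exact Poisson intervals at a level of 95% and cover counting error only. FBXO32 scored 188.3 in replicate 1, or 998 tags (937 to 1062), and 387.9 in replicate 2, or 2608 tags (2509 to 2710). NDUFAF6 scored 104.9, or 556 tags (511 to 604), and 224.1, or 1507 tags (1432 to 1585). Their intervals were separate from each other and from those of the other 4 genes in each replicate. Tags behind the median peak numbered 31 and 49 in replicates 1 and 2.

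HIBADH, TFAP4, HBP1 and DHX40 lay close together. HIBADH scored 60.6, or 321 tags (287 to 358), at rank 7 in replicate 1 and 122.5, or 824 tags (769 to 882), at rank 6 in replicate 2. TFAP4 scored 60.7, or 322 tags (288 to 359), at rank 6, and 113.2, or 761 tags (708 to 817), at rank 11. Neighbours in this order had overlapping intervals in both replicates, so their order was not resolved. HBP1 scored 61.1, or 324 tags (290 to 361), at rank 5 and 104.7, or 704 tags (653 to 758), at rank 14. DHX40 scored 56.4, or 299 tags (266 to 335), at rank 11 and 108, or 726 tags (674 to 781), at rank 13. HBP1 was thus the highest of these 4 in replicate 1 and the lowest in replicate 2, where its interval no longer reached that of HIBADH. The score in replicate 2 was 1.71 times that in replicate 1 for HBP1 and 2.02 times for HIBADH, beside a median of 1.79 over all 2103 shared promoter peaks.

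**Figure D1:**
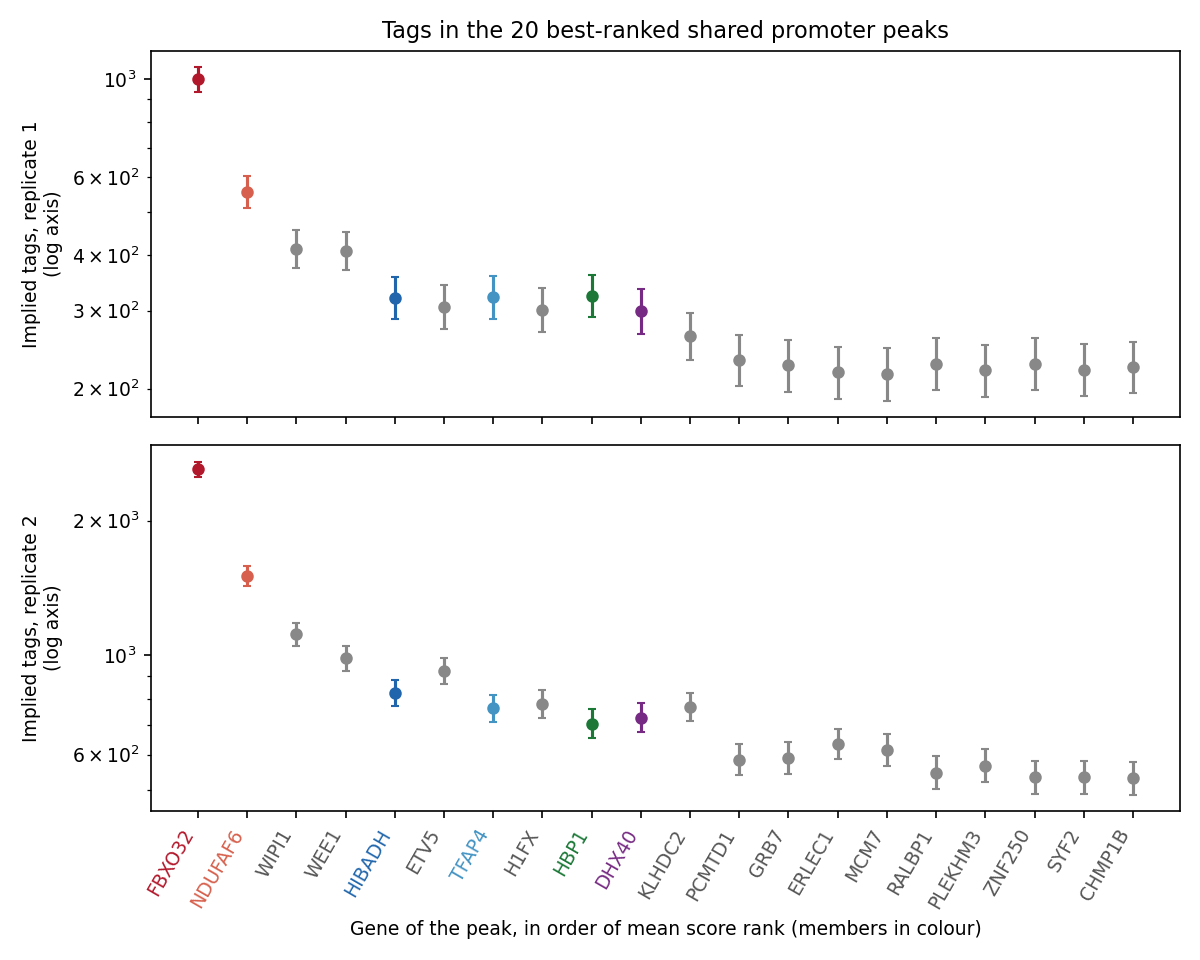
Implied tags (log axis) with 95% exact Poisson intervals in replicate 1 (top) and replicate 2 (bottom) for the 20 shared promoter peaks with the best mean score rank, the 6 genes in colour and the others in grey. FBXO32 (998 and 2608 tags) and NDUFAF6 (556 and 1507 tags) stand above all others, while HIBADH, TFAP4, HBP1 and DHX40 lie among peaks with overlapping intervals.

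The 6 genes were not the only ones at this level. By mean score rank their peaks stood at positions 1, 2, 5, 7, 9 and 10 among the shared promoter peaks. WIPI1, an autophagy protein, was at position 3 (414 and 1113 tags) and WEE1, the kinase that holds back mitotic entry, at position 4 (409 and 985 tags). ETV5, an ETS factor, was at position 6 and H1FX, a linker histone gene, at position 8. DHX40, the lowest of the 6, had a mean rank of 12. KLHDC2, a substrate receptor of a ubiquitin ligase that was not chosen, had the same mean rank of 12 with 263 and 768 tags. PCMTD1 came next with a mean rank of 20. No difference between DHX40 and KLHDC2 could therefore be read from the scores.

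All 6 promoter peaks were placed almost identically in both replicates. Each of the 211 bases of every replicate 1 peak lay inside its replicate 2 partner. Such overlap was common, with a median of 205 bp and an upper quartile of 211 bp over all shared promoter peaks. WIPI1, WEE1 and KLHDC2, top-ranked but not chosen, also overlapped by 211 bp. The centres of the 6 pairs were 1 to 12 bp apart, with a median of 9.5 bp, beside 29 bp over all shared promoter peaks. WIPI1 was placed as closely, at -317 and -316 bp from its TSS in replicates 1 and 2. Of all promoter peaks in replicate 1, 77.6% overlapped a promoter peak of replicate 2, a share the choice of the 6 genes made use of. The focus ratio is the fraction of tags on the expected side of the peak centre. Its range over the 6 peaks was 0.873 to 0.924 (replicate 1) and 0.883 to 0.926 (replicate 2), beside medians of 0.75 and 0.763 over all shared promoter peaks. NDUFAF6 had the highest focus ratio of the 6 in each replicate. These values come from the same tags as the score. The centre distances and focus ratios were not set against peaks of like score as a group and were not tested.

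FBXO32 lacked the preferred heptamer although its peak was the strongest. The peak spanned chr8:123541187-123541397 in replicate 1 and chr8:123541165-123541421 in replicate 2, overlapping the start of the first exon. The deposited distance to the TSS was -39 and -40 bp, negative values being upstream, and from the canonical GENCODE start the replicate 2 centre lay at -87 bp. No exact TGTTTAC lay within 100 bp of the centre in either replicate, and the nearest copy was 2664 bp from the replicate 2 centre. In its place the window held TGTTTAT, at -28 bp from that centre, and TATTTAT, at 62 bp, both upstream of the start and on the strand opposite to the gene. Among all shared promoter peaks, TGTTTAT was found in 5.56% and TATTTAT in 2.23% of windows of 201 bases around the centre. The FBXO32 window also held the E-box CACGTG and the ETS word CCGGAAG, found in 11.3% and 19.4% of the windows, and CACGTG was also in the HBP1 window.

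At NDUFAF6 the peak lay on the upstream start region of a gene with several start regions, facing another gene. The peak spanned chr8:94895702-94895912 in replicate 1 and chr8:94895684-94895940 in replicate 2, within the annotated span of both NDUFAF6 and its neighbour CCNE2. The replicate 2 centre lay at -1 bp from the nearest GENCODE start of NDUFAF6 and at -129177 bp from the canonical one. At the canonical start, replicate 2 alone had a peak, chr8:95024840-95025096, with 61 tags (47 to 78) and no forkhead heptamer, against 1507 tags at the upstream start. The single TGTTTAC of the upstream peak lay at chr8:94895793-94895799, at -17 bp from the nearest start. CCNE2, which encodes cyclin E2, is read in the opposite direction, and its canonical start lay 611 bp from the peak centre. The deposited annotation names only NDUFAF6 for this peak, and it assigned CCNE2 0 peaks in replicate 1 and 1 in replicate 2, 13844 bp from its TSS. Which of the genes the peak bears on was not tested. NDUFAF6 was the only one of the 6 genes with a start of another protein-coding gene within 1000 bp of the centre, beside 29.0% of all shared promoter peaks.

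HIBADH and HBP1 carried their peaks clear of the transcribed region. The HIBADH peak spanned chr7:27663038-27663248 in replicate 1 and chr7:27663005-27663261 in replicate 2, with its replicate 2 centre at -250 bp from the canonical GENCODE start. Its TGTTTAC, shown above, was at -17 bp from the replicate 2 centre and read on the strand opposite to the gene. The HIBADH window also held the E-box CAGCTG and CCAAT. The HBP1 peak spanned chr7:107168522-107168732 and chr7:107168489-107168745, at -386 bp from the canonical start and -344 bp from the nearest one. By distance to the nearest start, the HBP1 peak was the farthest of the 6. Its TGTTTAC was 5 bp from the replicate 2 centre, on the strand of the gene. A further TGTTTAC lay outside both HBP1 peaks, 216 bp downstream of the centre. HBP1 also had the least CpG-rich window of the 6, with a GC content of 54.2% and an observed over expected CpG ratio of 0.583.

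TFAP4 had 2 strong peaks, each with its own TGTTTAC. The promoter peak spanned chr16:4273015-4273225 in replicate 1 and chr16:4273001-4273257 in replicate 2, with its replicate 2 centre at -106 bp from the canonical start and -54 bp from the nearest one. The second peak, in a CpG island of intron 1, spanned chr16:4271908-4272118 and chr16:4271875-4272131, 987 and 997 bp downstream of the TSS. It held 101 tags (82 to 123) at rank 323 in replicate 1 and 307 tags (274 to 343) at rank 194 in replicate 2. Both TGTTTAC copies read on the strand of the gene. The promoter window also held CAGCTG, the E-box that the TFAP4 protein itself is known to bind, and CAGCTG was found in 11.1% of all shared promoter windows.

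DHX40 had a single peak in each replicate, at the start of the gene. It spanned chr17:59565479-59565689 and chr17:59565468-59565724, with its replicate 2 centre at -14 bp from the canonical start. TGTTTAC lay at -30 bp from that start, inside the first exon of another annotated transcript that begins further upstream, and on the strand opposite to the gene. DHX40 was the only one of the 6 genes with no further peak in either list.

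**Figure D2:**
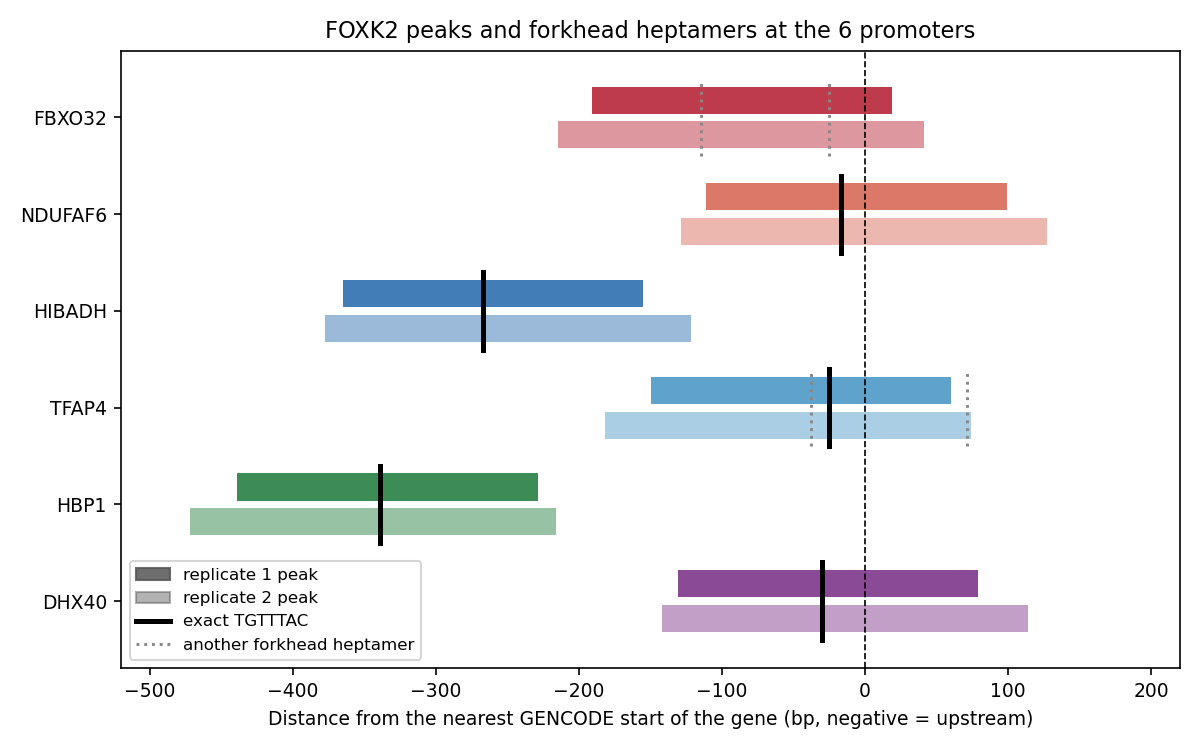
Called peaks of replicate 1 (dark bars) and replicate 2 (pale bars) at the 6 promoters against the distance from the GENCODE start of the gene nearest to the peak centre, in bp along the gene's own direction. Black lines mark exact TGTTTAC and dotted grey lines mark the other forkhead heptamers inside the replicate 2 peak. Every promoter but FBXO32 has a single black line near the middle of its peaks, and the HIBADH and HBP1 peaks end before the start.

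Exact TGTTTAC was thus present in 5 of the 6 promoter peaks in both replicates, beside 16.8% of the 2103 shared promoter peaks. This share differed along the score order, from 58.0% of the 100 best-ranked shared promoter peaks (95% exact binomial interval 47.7% to 67.8%) to 4.85% of the 103 at the end of the order (1.59% to 11.0%). Among the 20 best, 13 held the heptamer. Both of these best-ranked sets include the 6 genes, so the shares are not independent of the 5 of 6. The 5 of 6 is therefore to be read against the best-ranked peaks, and WIPI1, H1FX and PCMTD1 lacked the heptamer as FBXO32 did. With any of the 8 heptamers counted, all 6 promoter peaks had a match, beside 30.2% of shared promoter peaks. In the 5 peaks with a copy, the distance from the centre was 4 to 20 bp in replicate 1 and 5 to 29 bp in replicate 2, with medians of 7 and 16 bp, beside 18 and 15 bp over all shared promoter peaks that had one. Measured from the GENCODE start nearest to the peak centre, the copies lay upstream in 5 of 5 cases, beside 76.4% of 356 copies whose gene was found in GENCODE. At DHX40 and NDUFAF6 the copy was also downstream of another annotated start of the gene. The deposited distances put the peak centre downstream of the TSS at these genes, at 59 and 71 bp for DHX40 and 39 and 44 bp for NDUFAF6. They read on the strand of the gene in 2 of 5 cases, beside 50.8%. With 6 genes picked by rank, no test of these shares was made.

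**Figure D3:**
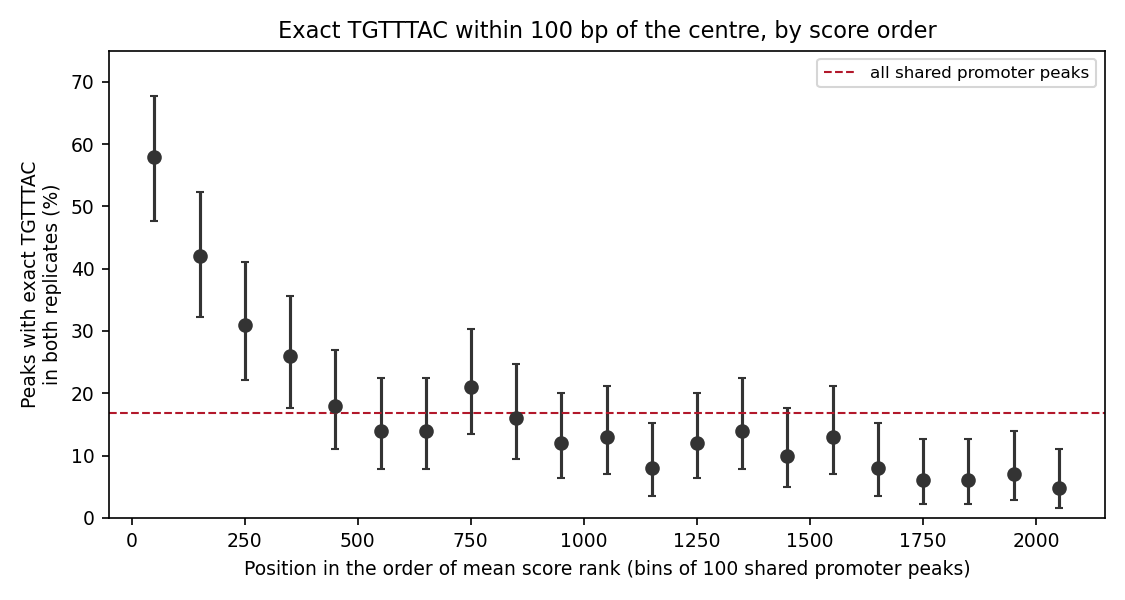
Share of shared promoter peaks with exact TGTTTAC within 100 bp of the centre in both replicates, in bins of 100 along the order of mean score rank (the last bin holds 103), with 95% exact binomial intervals. The dashed line is the share over all of them, 16.8%. The share is 58.0% in the first bin, which holds the 6 genes, and 4.85% in the last.

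Base composition of the 6 promoters had medians within the interquartile range of all shared promoter peaks. The GC content of the windows ran from 54.2% to 72.1% with a median of 67.4%, beside 62.7%, and the CpG ratio had a median of 0.833, beside 0.852. The GC box GGGCGG was in all 6 windows, beside 53.1%. CCAAT was in 2 of 6, at NDUFAF6 and HIBADH, beside 29.6%. The AP-1 words TGACTCA and TGAGTCA were in 0 of 6, beside 3.42%, and the CRE word TGACGTCA was in 0 of 6, beside 3.14%. All words were searched on both strands in 201 bases around the replicate 2 centre, and a missing word says only that these letters were not in the window.

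Outside the main promoter peak, 4 of the 6 genes had a further peak that both replicates shared, beside 20.5% of the 2080 genes with a shared promoter peak. These were the intron 1 peak of TFAP4, an upstream peak of FBXO32, an upstream peak of HIBADH and an intron 1 peak of NDUFAF6. The FBXO32 peak, at -7002 and -7104 bp from the TSS, held 48 tags (35 to 64) and then 112 tags (92 to 135), and the window held no forkhead heptamer. That of HIBADH, at -15171 and -15185 bp in an LTR element (MER68), held 31 tags (21 to 44) and 70 tags (55 to 88). The NDUFAF6 intron peak, 9686 and 9711 bp downstream, held 26 tags (17 to 38) and 49 tags (36 to 65) and contained 1 exact TGTTTAC. TFAP4 and NDUFAF6 thus had the heptamer in a second shared peak, and FBXO32 had it in neither. The main peaks were chosen by score, so a lower next peak follows from the choice. In replicate 1 the tags went from 998 to 48 for FBXO32 and from 322 to 101 for TFAP4. In replicate 2 they went from 2608 to 112 for FBXO32 and from 761 to 307 for TFAP4.

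Replicate 2 alone had 6 more peaks at these genes, and none held TGTTTAC. HIBADH had 3 of them, 2 in intron 2 and 1 upstream, with 66 to 86 tags. HBP1 had 2, with 35 and 29 tags, the weaker of them inside the neighbouring gene PRKAR2B, at -18296 bp from the HBP1 TSS. The remaining peak was the one at the canonical start of NDUFAF6. At 29 to 86 tags they lay around the replicate 2 median of 49, so the absence of a partner in replicate 1 does not show an absence of binding there.

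**Figure D4:**
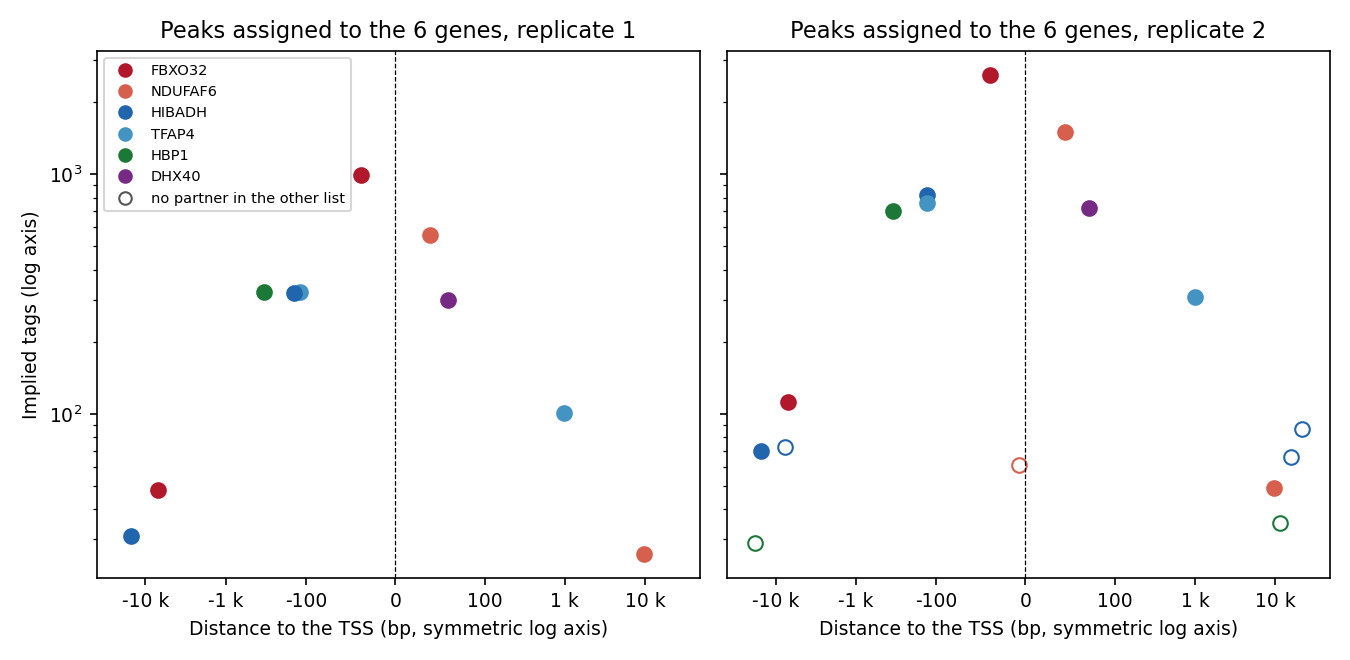
Implied tags (log axis) against the deposited distance to the TSS (bp, symmetric log axis) for the 10 peaks of replicate 1 and the 16 peaks of replicate 2 assigned to the 6 genes. Open circles are the 6 peaks of replicate 2 with no overlapping peak in replicate 1, and all of them lie at 86 tags or fewer. The 6 main promoter peaks, chosen by score, lie at 704 tags or more in replicate 2 and at 299 tags or more in replicate 1.

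Scores were higher than the list median in most of the regions that hold these genes. FBXO32 and NDUFAF6 are on chromosome 8, which had the highest median score of any numbered chromosome or X, 8.3 in replicate 1 and 10.7 in replicate 2, or 1.42 and 1.47 times the median of the list. Peaks within 5000000 bp of FBXO32 had medians 1.81 and 2.04 times that of the list. Those around HIBADH had 1.71 and 1.8 times, and those around DHX40 1.39 and 1.62 times. HBP1 was in the opposite position, with neighbours at 0.87 and 0.775 times the list median. Relative to the peaks around it, FBXO32 scored 17.8 and 26 times higher and NDUFAF6 15.9 and 24.7 times, and both kept ranks 1 and 2 in each list when every score was divided by its local median. Divided by the median of its chromosome instead, FBXO32 kept rank 1 in both lists, NDUFAF6 was at ranks 3 and 2, and HBP1 was at ranks 11 and 16. With the local scaling HIBADH moved to ranks 38 and 49 and DHX40 to ranks 27 and 51, while the ranks of HBP1 were 5 and 6 and those of TFAP4 8 and 14. The part of DNA copy number in these levels was not tested.

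Relatives of each of the 6 genes were counted in the same way, without a test of any difference between families. A promoter peak in both replicates was found for 9.3% of 20052 protein-coding genes. Among FOXO and muscle atrophy genes other than FBXO32, it was found for 11 of 28 (39.3%). The 3 best-ranked were TXNIP, an inhibitor of thioredoxin and glucose uptake (ranks 96 and 71), TRIB1, a pseudokinase (ranks 125 and 133), and BCL2L11, which encodes the proapoptotic protein BIM (ranks 338 and 187). Each of these 3 promoter peaks held TGTTTAC, as did 4 of the 11 in all. The heptamer was in 16.8% of all 2103 shared promoter peaks and in 58.0% of the 100 best-ranked. Basic helix-loop-helix leucine zipper factors other than TFAP4 had such a peak in 8 of 21 cases (38.1%), led by the MAX partners MXD3 (ranks 176 and 88) and MXD1 (ranks 690 and 1047) and by MAX itself (ranks 289 and 513), none of which held TGTTTAC, which was present in 1 of the 8. In replicate 2 alone, where 21.2% of protein-coding genes had a promoter peak, the counts were 15 of 28 and 10 of 21, and in replicate 1 alone, where 11.9% had one, they were 11 of 28 and 8 of 21.

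In the families of the other 4 genes the share with a promoter peak in both replicates was lower than in the FOXO and zipper lists. Over all protein-coding genes it was 9.3%, and branched-chain amino acid breakdown and DEAH-box helicases were near that share. For complex I assembly factors other than NDUFAF6, 3 of 17 had a promoter peak in both replicates (17.6%), and the best, ECSIT, stood at ranks 4624 and 5177. For branched-chain amino acid breakdown other than HIBADH, it was 2 of 20 (10.0%), AUH at ranks 690 and 630 and MCCC2 at ranks 6145 and 8342. For HMG-box factors other than HBP1, it was 3 of 16 (18.8%), CIC, TCF7L2 and BBX. For DEAH-box helicases other than DHX40, it was 2 of 17 (11.8%), DHX8, a splicing helicase, at ranks 32 and 54 with TGTTTAC in its peak, and DHX30 at ranks 11262 and 18588. These counts were limited by the shorter replicate 1 list. In replicate 2 alone, 21.2% of protein-coding genes had a promoter peak. The counts there were 9 of 17 for complex I assembly and 8 of 17 for DEAH-box helicases. For branched-chain amino acid breakdown the count was 6 of 20 and for HMG-box factors 4 of 16. The contrast between complex I or DEAH-box genes and the FOXO or zipper lists was therefore not seen in replicate 2. Over the genes with a peak in both replicates, the median of the mean ranks was 2383 for the FOXO and atrophy list, 6493.5 for complex I assembly, 3951.75 for branched-chain amino acid breakdown, 1806.25 for zipper factors, 2181.5 for HMG-box factors and 7484 for DEAH-box helicases. Over all shared promoter peaks it was 4297.5. The lists were put together with earlier results of these data known and were not tested.

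**Figure D5:**
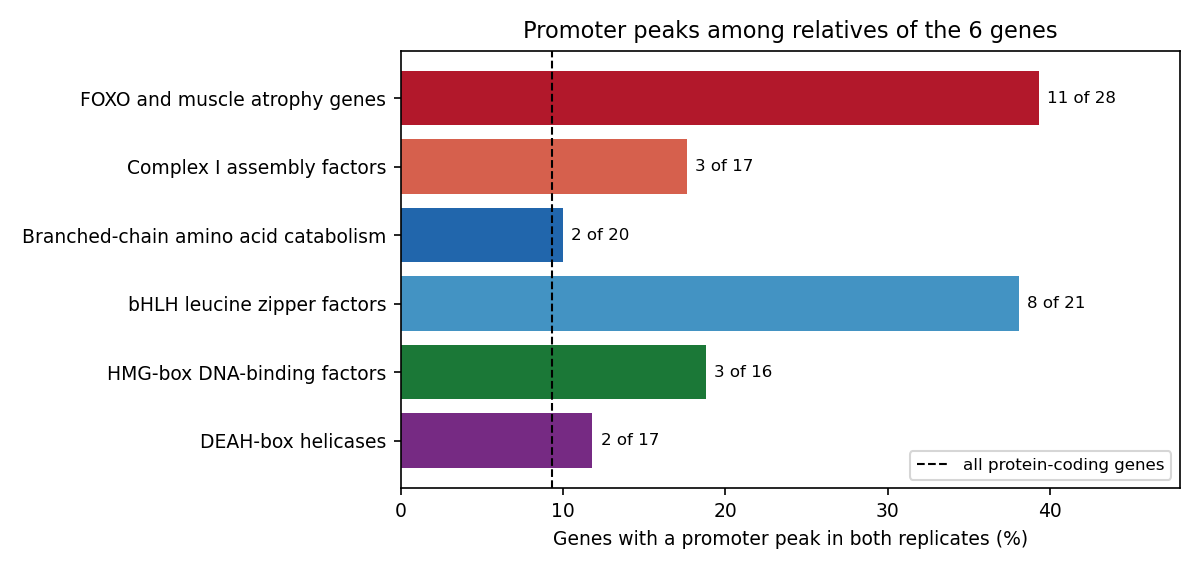
Share of genes with a FOXK2 promoter peak in both replicates in 6 families, each without the chosen gene, with the number of genes beside each bar. The dashed line is the share over all protein-coding genes, 9.3%. The FOXO and atrophy genes (39.3%) and the leucine zipper factors (38.1%) lie highest, and branched-chain amino acid breakdown (10.0%) lies next to the line.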

How the data were processed

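The 6 genes, the family lists and the settings were chosen with earlier results of these data known. Per the paper's methods and the submitters' processing notes, the authors mapped single-end reads to hg38 with Bowtie2 2.2.6 and called peaks with HOMER 4.10. The deposited lists, one for each replicate, give a peak score, the focus ratio as a fraction and the signed distance to the nearest TSS. The study's supplement compares FOXK2 signal with input at a peak, but whether input entered the calling of the deposited lists was not given in the sources used here. The paper's methods also name DESeq2 for the enrichment statistics of peaks, and the paper set an FDR limit on the peaks it joined to RNA-seq. No such limit was applied here. Score steps imply library totals near 53000000 and 67200000 tags, if HOMER scaled to 10000000 tags, so relative counting error is smaller in replicate 2.

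An overlap of 1 bp or more made a pair of peaks shared. Words were counted within 100 bp of the peak centre in hg38, which held all peak positions. Starts and exons came from GENCODE release 44, and gene symbols from RefSeq, where all genes of the 6 lists were found. Genes named were the 6, the others among the 12 best shared promoter peaks, and at most 3 per family list by mean rank. CCNE2 and PRKAR2B were named after their values were seen. No test was made, since 2 replicates of a single condition were available, inputs were not used and the genes were chosen by score. Alternatives changed the overlap, score threshold, word, window, score scaling and replicate. Overlap, word and step functions were tested on simulated data. Python 3.11.15, numpy 2.4.6, pandas 2.3.3, scipy 1.17.1, pysam 0.24.0, matplotlib 3.10.9 and samtools 1.23.1 were used.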

Additional observations from a re-analysis of the deposited data

How the results depend on the processing

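No paired analysis was possible because the inputs, which share the replicate numbers, were not used here, and both FOXK2 libraries belong to a single group. All 6 genes had a shared promoter peak with a reciprocal overlap of 50% and with centres at most 50 bp apart, while score thresholds say nothing here, since the genes were chosen by score. TGTTTAC was in 5 of them under each window and replicate setting, or in 6 when the 8 heptamers or 1 mismatch were allowed. The 26 peaks assigned to the 6 genes fell to 13 with promoter peaks only and were 10 to 16 with 1 replicate omitted, fewer peaks by construction. The median over the 6 genes of the mean score rank, 7.5, was 10.8 with scores divided by the chromosome median. That scaling left FBXO32 at 1 and took NDUFAF6 from 2 to 2.5, HIBADH from 6.5 to 10, TFAP4 from 8.5 to 11.5, HBP1 from 9.5 to 13.5 and DHX40 from 12 to 13.5. With scores divided by the local median, the mean rank was 43.5 for HIBADH and 39 for DHX40. The cause was not tested. Counts in the family lists moved by at most 1.5 times when peaks had to overlap or could lie within 10000 bp of the TSS. With 1 replicate omitted, a setting chosen after seeing the data, they were 11 to 15 for FOXO and atrophy genes, 4 to 9 for complex I assembly, 2 to 6 for branched-chain amino acid breakdown, 8 to 10 for zipper factors, 3 to 4 for HMG-box factors and 2 to 8 for DEAH-box helicases, the higher counts being those of replicate 2. With 2 replicates, the spread between them is poorly known.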
